A study of Mus musculus with 13 samples.

Results

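The genes described here are 35 mouse genes of oligodendrocytes and their myelin, taken as a list of symbols and found by their Ensembl identifiers in the count table of the series. All 35 were present among its 47643 gene identifiers, and all 35 passed the filter on low counts that left 17285 genes for testing. By role, 4 mark precursor and newly formed oligodendrocytes (Pdgfra, Gpr17, Enpp6, Bcas1), and 5 are transcription factors of the lineage (Sox10, Olig1, Olig2, Nkx6-2, Myrf). Another 13 are proteins of the myelin sheath and its junctions (Mbp, Mog, Mag, Mobp, Cnp, Mal, Pllp, Opalin, Ermn, Cldn11, Gjb1, Tspan2, Plekhh1). The remaining groups are 5 lipid and metabolic enzymes (Ugt8a, Fa2h, Aspa, Qdpr, Car2) and 8 receptors, transport and secreted proteins (Gpr37, Lpar1, Trf, Apod, Nipal4, Evi2a, Hapln2, Ninj2). The last 3 role groups, with 26 genes, are called mature genes here.

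RNA was sequenced from the neurovasculature of 13 male CD1 mice aged 8 to 10 weeks. The 4 sham-vehicle mice received no lipopolysaccharide (LPS, the bacterial cell wall component that sets off systemic inflammation). The 5 LPS-vehicle mice received LPS of Salmonella at 3 mg/kg into the peritoneum at 0, 6 and 24 h, and the 4 LPS-CPD-4645 mice received the same LPS and, 30 min after each dose per the labels, CPD-4645 at 10 mg/kg under the skin. CPD-4645 inhibits monoacylglycerol lipase, the main enzyme that breaks down the endocannabinoid 2-arachidonoylglycerol. In the brain the study also found partial inhibition of ABHD6, which breaks down the same lipid, and of fatty acid amide hydrolase. The other groups are labelled as given vehicle, a mixture of DMSO, Cremophor and saline. Tissue was taken at 28 h from brains that were not perfused, so blood cells could be present. Vessels were enriched from frozen brain by a published procedure to which the authors added sucrose washes meant to clear remaining myelin, so the level of every gene below also depends on how much myelin each preparation kept. In bulk samples such as these, fewer cells of a type and less RNA per cell cannot be told apart.

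Oligodendrocytes wrap axons in compact, lipid-rich membrane. Precursors marked by Pdgfra pass through a short-lived stage marked by Gpr17 and Enpp6 before they switch on the genes of the sheath, a step that needs the transcription factors Sox10 and Myrf. The sheath holds a few very abundant proteins, such as myelin basic protein (Mbp), and galactolipids made by Ugt8a and Fa2h, and mRNAs of several sheath proteins are carried out into the myelin processes.

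Levels are given as CPM, each gene's counts divided by the library total on the usual common scale and corrected with TMM factors, and levels of different genes are compared only as CPM per kb of exon. Total counts ranged from 7813559 to 55133373 per library with a median of 26989885, and 34 of 35 genes had more than 3 counts in every library. The exception was Ninj2, with as few as 3. In sham-vehicle mice the highest levels per length were those of Cldn11, the tight junction protein of myelin, at 288 ± 42.4 CPM per kb, Cnp, an enzyme of non-compact myelin, at 252 ± 26.7, Car2 at 224 ± 13.2, Qdpr at 209 ± 15.7 and Mbp at 172 ± 19.9 (mean ± SD, n = 4). The lowest were those of Ninj2 at 3.71 ± 0.703, Nipal4 at 1.95 ± 0.227 and Enpp6 at 0.856 ± 0.0982 CPM per kb. Cldn11 and Cnp, next to each other at the top of this order, did not differ beyond their SDs, nor did Car2 and Qdpr. After LPS the order changed, and Apod stood highest at 747 ± 177 CPM per kb (n = 5).

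The tissue label was checked against marker genes of other cells. The summed level of 12 neuron markers was 3791 to 5237 CPM per kb across the 13 libraries, that of the 35 oligodendrocyte and myelin genes was 1754 to 2516, and that of 10 endothelial markers was 158 to 391. The lists differ in size, and per gene the means were 316 to 436, 50.1 to 71.9 and 15.8 to 39.1 CPM per kb. The summed level of 10 astrocyte markers was 351 to 695 CPM per kb. The libraries labelled neurovasculature thus held much neuronal and myelin RNA besides that of vessels. By RT-qPCR the study reported Gfap, Pdgfrb and Pecam1 as enriched and Syp and Aif1 as low in its preparation. Of 6 Schwann cell markers, which would point to peripheral myelin, Pmp2 was at 0 counts in every library and the summed level was 1.35 to 4.77 CPM per kb.

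Of the 35 genes, 25 had at least 1 entry in the table of mouse promoters used (RefSeq, GRCm38.p6). The 250 bases before each start site were searched on both strands for ACAAAG, a core bound by SOX factors, the family of Sox10 (CTTTGT when on the other strand), and for CTGGCAC, a core of the Myrf motif. The SOX core was present in 11 of the 33 windows of the 25 genes (Apod, Cnp, Gjb1, Lpar1, Mag, Mobp, Opalin, Tspan2) and in 16.5% of all 32851 windows. The Myrf core was present in 6 of the 33 (Cnp, Hapln2, Lpar1, Mag, Nipal4) and in 4.19% of all windows. A match describes these letters and does not show binding. The windows of 4 genes are printed, chosen after their values were seen: Mobp and Apod, the members that rose most after LPS and were lower again with CPD-4645, and Opalin and Mag, sheath genes that fell after LPS. Capitals mark the matches to either core.
Mobp: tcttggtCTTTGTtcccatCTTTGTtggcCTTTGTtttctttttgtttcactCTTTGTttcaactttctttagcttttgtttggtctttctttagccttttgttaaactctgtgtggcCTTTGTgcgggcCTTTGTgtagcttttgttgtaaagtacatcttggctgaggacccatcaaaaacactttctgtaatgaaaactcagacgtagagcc
Apod: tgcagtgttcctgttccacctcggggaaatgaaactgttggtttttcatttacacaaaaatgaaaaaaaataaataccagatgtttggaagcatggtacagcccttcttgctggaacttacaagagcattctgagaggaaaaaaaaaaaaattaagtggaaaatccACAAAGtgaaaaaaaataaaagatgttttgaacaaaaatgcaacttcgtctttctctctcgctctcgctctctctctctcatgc
Opalin: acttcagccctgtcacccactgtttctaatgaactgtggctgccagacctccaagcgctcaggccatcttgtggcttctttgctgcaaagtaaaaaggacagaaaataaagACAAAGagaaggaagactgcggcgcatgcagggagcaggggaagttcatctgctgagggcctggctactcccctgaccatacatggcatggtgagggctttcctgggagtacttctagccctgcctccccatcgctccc
Mag: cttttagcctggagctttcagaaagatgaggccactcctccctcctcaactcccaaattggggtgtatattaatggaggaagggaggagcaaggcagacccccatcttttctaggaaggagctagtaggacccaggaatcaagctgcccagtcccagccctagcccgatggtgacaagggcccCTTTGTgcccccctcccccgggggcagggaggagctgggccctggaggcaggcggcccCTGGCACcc
These lie at chr9:120149492-120149706 (plus strand, without the part that GENCODE counts to the transcript), chr16:31314809-31315058 (minus strand), chr19:41077114-41077363 (minus strand) and chr7:30914923-30915172 (minus strand, the most upstream of 3 start sites). The Mobp window held 6 matches to the SOX core, those of Apod and Opalin held 1 each, and that of Mag held 1 match to the SOX core beginning 67 bases before the start and 1 to the Myrf core beginning 9 bases before it.

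The first comparison, LPS-vehicle against sham-vehicle mice, asked what systemic inflammation did to these genes. Most were lower: 20 of 35 fell and 5 rose at an adjusted p of at most 0.05 (edgeR quasi-likelihood test, Benjamini-Hochberg adjustment over all 17285 genes), while 8.86% of all genes tested fell and 11.1% rose. At least 2-fold changes that passed the same test were found in 11 genes that fell, beside 0.995% of all genes, and in 2 that rose, Apod and Mobp, beside 4.68%. The 5 LPS-vehicle mice lay entirely below the 4 sham-vehicle mice for 20 genes and entirely above them for 4, beside 8.44% and 9.68% of all genes. The median log2 fold change was -0.80 over the 26 mature genes and -0.47 over the 4 precursor and newly formed genes, and -0.00065 over all genes tested. In single mice, the median log2 ratio of the mature genes to the sham mean lay between -0.92 and -0.58 after LPS, and that of the precursor and newly formed genes lay between -0.84 and -0.35. These ranges overlapped. The median of the 4 precursor and newly formed genes lay between log2 changes of -1.77 (Enpp6) and -1.14 (Gpr17) and of 0.21 (Bcas1) and 0.26 (Pdgfra). No gene of the 5 enzymes and none of these 4 rose at an adjusted p of at most 0.05.

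The second comparison, LPS-CPD-4645 against LPS-vehicle mice, asked what the inhibitor changed on top of LPS, and it shares the LPS-vehicle mice with the first. Here 11 genes were lower and 4 higher at an adjusted p of at most 0.05, beside 16.4% lower and 14.1% higher among all genes. At 2-fold, 3 were lower (Gpr17, Mobp and Aspa), beside 4.19% of all genes, and 0 were higher, beside 1.7% of all genes. That count was also 0 at an unadjusted p under 0.05, and by limma-voom and DESeq2. The groups did not overlap for 8 genes that were lower and 2 that were higher, beside 12% and 11.1% of all genes. The median log2 fold change was -0.05 over the 26 mature genes, -0.22 over the 4 precursor and newly formed genes and -0.02 over all genes. With single mice left out, the median of the mature genes ran from -0.12 without LPS-vehicle mouse 3 to 0.04 without LPS-vehicle mouse 4, so it had no settled sign, and it also moved by over 1.5 times without LPS-vehicle mouse 1, 2 or 5 or LPS-CPD-4645 mouse 3. That of the precursor and newly formed genes ran from -0.29 without LPS-vehicle mouse 3 to -0.09 without LPS-vehicle mouse 4, and was -0.14 without LPS-CPD-4645 mouse 4.

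Against sham-vehicle mice, the LPS-CPD-4645 mice had 21 genes lower and 3 higher, beside 19.3% and 19.5% of all genes, and 13 lower and 2 higher by at least 2-fold, beside 4.98% and 6.11%. In this comparison 22 genes lay entirely below and 3 entirely above the sham range, beside 18.8% and 18.7% of all genes. The median log2 difference was -0.85 for the mature genes and -0.98 for the precursor and newly formed genes, against -0.01 for all genes. In single LPS-CPD-4645 mice the medians of the mature genes were -0.88 to -0.74, within the span of the LPS-vehicle mice, and those of the precursor and newly formed genes were -1.22 to -0.85, just below every LPS-vehicle mouse. The 4 precursor and newly formed genes did not move together. Their log2 differences from sham were -2.54 for Gpr17, -1.96 for Enpp6, 0.01 for Pdgfra and 0.51 for Bcas1, so their median lay between values far apart.

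**Figure D1:**
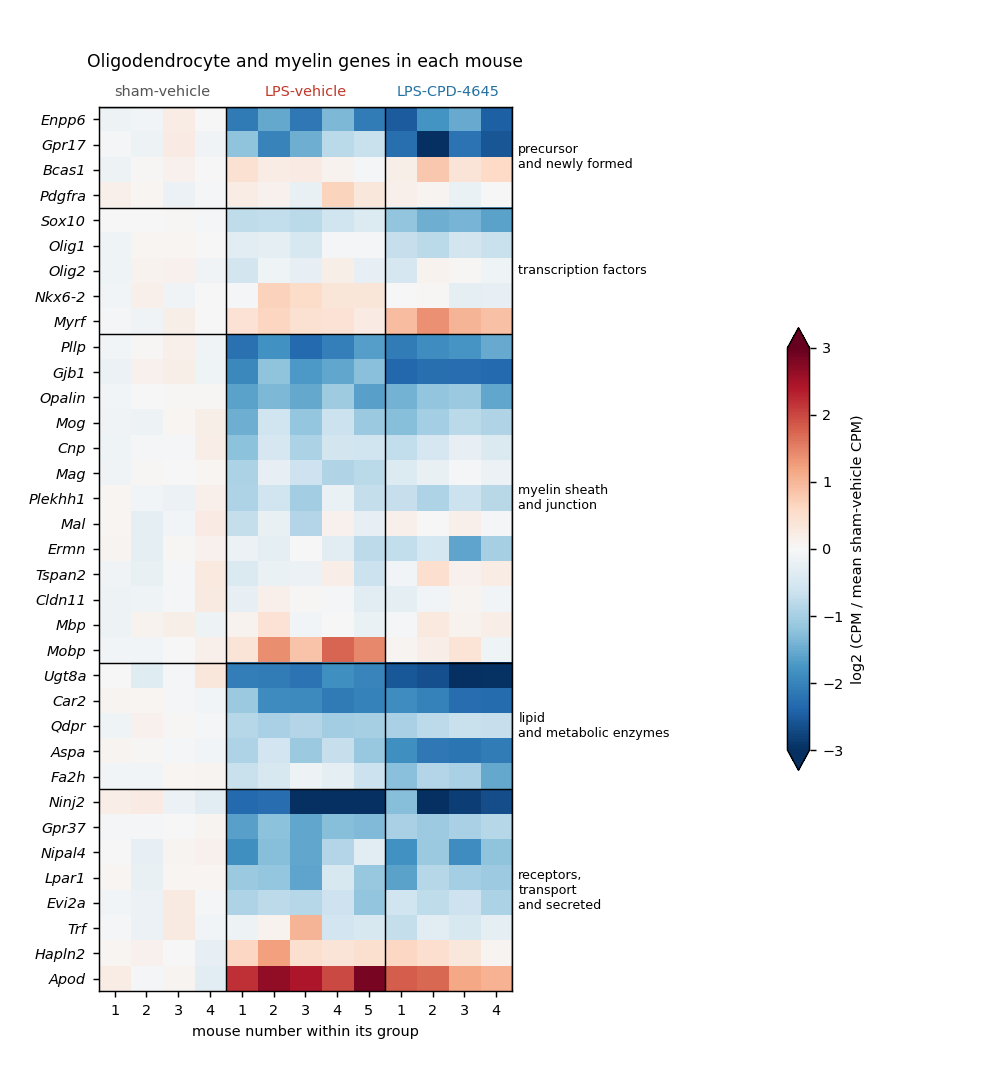
Level of each of the 35 genes in each of the 13 mice as log2 ratio of its CPM to the mean of the 4 sham-vehicle mice, with genes in rows by role and mice in columns by group. Ugt8a, Pllp, Car2 and Ninj2 were low in all 9 mice given LPS, and Apod was high in all 9.

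**Figure D2:**
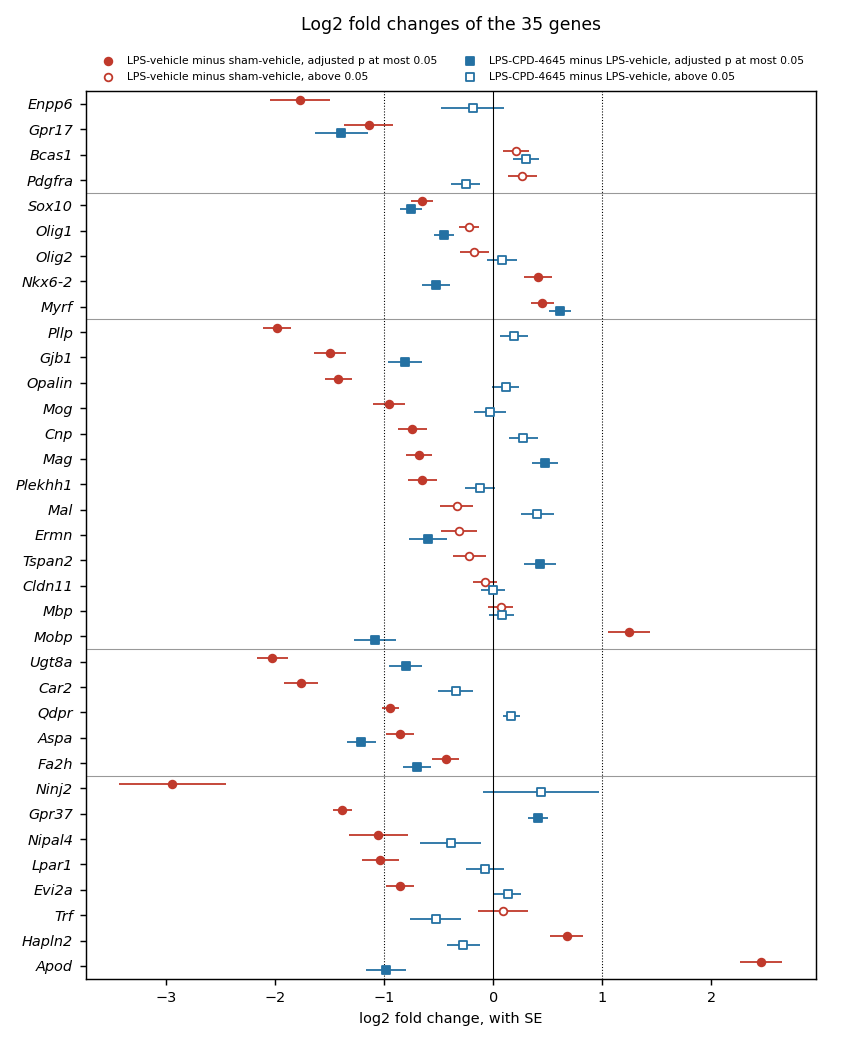
Log2 fold change with its standard error for each gene, LPS-vehicle against sham-vehicle and LPS-CPD-4645 against LPS-vehicle, with filled points at an adjusted p of at most 0.05 and dotted lines at a 2-fold change. In the first comparison 20 genes fell and 5 rose, and in the second 11 were lower and 4 higher.

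Among the precursor and newly formed genes, Gpr17 and Enpp6 were much lower after LPS while Pdgfra and Bcas1 did not pass the test. Gpr17, a receptor of the short-lived stage before maturation, had 33.7, 30.9, 40.8 and 31.9 CPM in the sham-vehicle mice, 14.97, 8.56, 12.5, 19.5 and 21.7 in the LPS-vehicle mice and 7.12, 3.64, 7.34 and 5.77 in the LPS-CPD-4645 mice. The 3 groups did not overlap and descended in that order. Gpr17 fell 2.21-fold after LPS (log2 -1.14 ± 0.22 SE, adjusted p = 0.0013) and was a further 2.63-fold lower with CPD-4645 (log2 -1.39 ± 0.24, adjusted p = 0.00043), the largest drop among the members in the second comparison. Enpp6, a choline phosphodiesterase of newly forming oligodendrocytes, had 3.99, 4.22, 5.18 and 4.49 CPM in sham-vehicle mice, 1.03, 1.54, 1.01, 1.75 and 1.04 after LPS and 0.791, 1.29, 1.58 and 0.824 with CPD-4645. Both LPS groups lay under every sham mouse and overlapped each other. Enpp6 fell 3.42-fold after LPS (adjusted p = 0.00013), and with CPD-4645 its log2 difference from LPS-vehicle was -0.19 ± 0.29 (adjusted p = 0.65).

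Pdgfra, the growth factor receptor of precursors that vascular fibroblasts also express, had 42.5 ± 4.25, 50.7 ± 11.5 and 42.9 ± 4.25 CPM in the 3 groups, and its overlapping levels gave adjusted p = 0.18 after LPS and 0.16 with CPD-4645. Bcas1, a protein of early myelinating cells, had 55.6 ± 4.28, 64.4 ± 8.23 and 79.1 ± 14.96 CPM. It passed the test in the comparison of LPS-CPD-4645 with sham-vehicle mice, where it was higher by 0.51 ± 0.12 on the log2 scale (adjusted p = 0.0033). The difference between CPD-4645 and LPS-vehicle mice was 0.30 ± 0.12 (adjusted p = 0.061), and it passed by limma-voom (adjusted p = 0.049), by DESeq2 (0.043) and without LPS-vehicle mouse 1 (0.030), LPS-CPD-4645 mouse 1 (0.014) or both shallowest libraries (0.021).

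A list of 14 other precursor genes gave 4 lower and 1 higher after LPS, none of them by 2-fold, and 6 lower and 0 higher with CPD-4645 against LPS-vehicle, of which 2 by at least 2-fold. For the same 14 genes, 9 were lower and 0 higher in LPS-CPD-4645 than in sham-vehicle mice, and the median log2 differences were -0.23, -0.42 and -0.69 in the 3 comparisons. Cspg4, the proteoglycan NG2 of precursors and also of pericytes, had means of 21.03, 24.6 and 9.41 CPM in sham-vehicle, LPS-vehicle and LPS-CPD-4645 mice, with a log2 difference of -1.40 ± 0.16 for the inhibitor (adjusted p = 1.3e-05). Neu4, a sialidase, had 13.3 ± 1.27 CPM in sham-vehicle mice, 21.4 ± 6.43 after LPS and 8.52 ± 2.76 with CPD-4645 (log2 -1.35 ± 0.23 for the inhibitor, adjusted p = 3.0e-04). A list of 12 other genes of newly formed oligodendrocytes had 6 lower and 1 higher after LPS and 0 lower and 3 higher with CPD-4645. Among all genes, 8.86% were lower and 11.1% higher after LPS, and 16.4% lower and 14.1% higher with CPD-4645 against LPS-vehicle. At 2-fold, 4.19% of all genes were lower with CPD-4645. Between LPS-CPD-4645 and sham-vehicle mice 19.3% of all genes were lower and 19.5% higher.

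The 5 transcription factors did not move as a group: after LPS 1 fell, 2 rose and 2 did not pass the test. Sox10, which sustains the lineage and switches on myelin genes (chr15:79154908-79165240, minus strand), had 61.8, 63.2, 63.8 and 61.0 CPM in sham-vehicle mice, 36.5, 37.6, 35.7, 40.9 and 47.2 after LPS and 27.6, 22.5, 23.9 and 20.4 with CPD-4645. The 3 groups were fully apart. It fell 1.57-fold after LPS (log2 -0.65 ± 0.10, adjusted p = 8.7e-05) and was 1.69-fold lower again with CPD-4645 (log2 -0.76 ± 0.10, adjusted p = 4.5e-05), which left it 2.66-fold below sham. Myrf, the factor that drives the myelin genes of maturing cells, went the other way. Its levels were 56.9, 55.1, 66.8 and 59.1 CPM in sham-vehicle mice, 79.9, 92.6, 81.8, 80.9 and 70.8 after LPS and 113, 153, 121 and 109 with CPD-4645, again without overlap. Myrf rose by 0.45 ± 0.10 on the log2 scale after LPS (adjusted p = 0.0045) and was higher by another 0.61 ± 0.10 with CPD-4645 (adjusted p = 0.00028), the only member higher in both.

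Olig1 and Olig2 are neighbouring helix-loop-helix factors of the lineage on chromosome 16. Olig1 had 171, 193, 195 and 184 CPM in sham-vehicle mice, 149, 151, 134, 180.4 and 180.3 after LPS and 114, 106, 127 and 117 with CPD-4645. The first 2 groups overlapped (adjusted p = 0.094), and all CPD-4645 mice lay below both (log2 -0.45 ± 0.09 against LPS-vehicle, adjusted p = 0.0014). Olig2 did not pass in any comparison, with 43.1 ± 4.01, 38.1 ± 7.08 and 40.2 ± 7.19 CPM. Nkx6-2, a homeodomain factor of maturing cells, rose after LPS from 27.0 ± 2.13 to 35.8 ± 6.65 CPM with overlapping groups (adjusted p = 0.033), a call lost when any 1 of sham-vehicle mice 1, 3 and 4 or LPS-vehicle mice 2 and 3 was left out (adjusted p = 0.063 to 0.091). With CPD-4645 it was back at 24.8 ± 2.70 CPM (log2 -0.53 ± 0.13 against LPS-vehicle, adjusted p = 0.0052).

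Of the 13 sheath and junction genes, 7 fell and 1 rose after LPS, with 3 of the 7 down at least 2-fold. Pllp, the tetraspan membrane protein plasmolipin (chr8:94674894-94696278, minus strand, GRCm38), had 128, 139, 151 and 126 CPM in sham-vehicle mice, 28.8, 38.5, 27.1, 32.7 and 42.9 after LPS and 31.9, 37.2, 39.5 and 47.5 with CPD-4645. Both LPS groups lay far under the sham range and overlapped each other. Pllp fell 3.96-fold (log2 -1.99 ± 0.13, adjusted p = 1.3e-08), and the inhibitor made a difference of 0.19 ± 0.13 that did not pass the test (adjusted p = 0.28). Opalin, a transmembrane glycoprotein at the paranodal loops, ranged over 47.9 to 52.1 CPM in sham-vehicle mice, 16.2 to 24.0 after LPS and 17.1 to 23.2 with CPD-4645. It fell 2.68-fold after LPS (adjusted p = 1.8e-07) with no call for the inhibitor (adjusted p = 0.52). Gjb1, the gap junction protein connexin 32 that links layers of the sheath (chrX:101376378-101385629, plus strand), had 27.0, 33.2, 34.3 and 27.8 CPM in sham-vehicle mice, 7.97, 13.2, 9.20, 10.4 and 12.8 after LPS and 5.93, 6.37, 6.32 and 6.04 with CPD-4645. Its groups were all apart, with 2.82-fold lower levels after LPS (adjusted p = 8.4e-07) and 1.75-fold lower levels again with CPD-4645 (adjusted p = 0.00085).

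Mog, Cnp and Plekhh1 fell less and showed no call for the inhibitor. Mog, the glycoprotein on the outermost myelin surface, went from 159 ± 16.4 to 81.6 ± 20.8 CPM (log2 -0.95 ± 0.15, adjusted p = 0.00012) and stood at 80.0 ± 10.7 with CPD-4645. Cnp fell from 593 ± 63.0 to 354 ± 71.0 CPM (log2 -0.74 ± 0.13, adjusted p = 0.00053) and stood at 428 ± 59.9. Plekhh1, a pleckstrin homology domain protein, fell from 44.4 ± 4.46 to 28.1 ± 6.72 CPM (adjusted p = 0.0022) and stood at 26.1 ± 2.25. Mag, the adhesion molecule of the innermost myelin layer, had 324, 355, 354 and 364 CPM in sham-vehicle mice, 181, 294, 228, 187 and 199 after LPS and 262, 301, 337 and 309.8 with CPD-4645. Every LPS-vehicle mouse lay under the sham range, and LPS-vehicle mouse 2, the highest of its group, overlapped the CPD-4645 mice. Mag fell 1.60-fold after LPS (log2 -0.68 ± 0.12, adjusted p = 0.00043) and was 1.39-fold higher with CPD-4645 than with vehicle (log2 0.47 ± 0.12, adjusted p = 0.0059), and its difference from sham was then -0.21 ± 0.13 (adjusted p = 0.2).

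Mobp was the only sheath gene to rise after LPS. This small basic protein of compact myelin (chr9:120149707-120181484, plus strand) had 93.8, 92.7, 98.9 and 110.3 CPM in sham-vehicle mice, 130.4, 258, 180.3, 329 and 269 after LPS and 105, 114, 131 and 90.9 with CPD-4645. LPS-vehicle mouse 1 was the lowest of its group and met the CPD-4645 range, and the other 4 lay above all mice of both other groups. Mobp rose 2.37-fold (log2 1.24 ± 0.19, adjusted p = 0.00013), was 2.12-fold lower with CPD-4645 (log2 -1.09 ± 0.19, adjusted p = 0.00044) and then differed from sham by 0.16 ± 0.20 (adjusted p = 0.56). Ermn and Tspan2 passed in the second comparison but not after LPS. Ermn, a cytoskeletal protein of mature myelin, had 63.3 ± 7.54, 51.2 ± 9.51 and 33.7 ± 9.67 CPM in the 3 groups and was lower with CPD-4645 (log2 -0.60 ± 0.17, adjusted p = 0.014). Tspan2, a tetraspanin of early sheath formation, had 166 ± 27.3, 143 ± 32.3 and 192 ± 32.5 CPM and was higher with it (log2 0.43 ± 0.15, adjusted p = 0.036), but without LPS-CPD-4645 mouse 2, at 234 CPM the highest library, its adjusted p was 0.15, and without LPS-vehicle mouse 1, 2 or 5 or LPS-CPD-4645 mouse 4 it was 0.050 to 0.088.

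Mbp, Cldn11 and Mal passed in none of the 3 comparisons. Mbp, which binds the inner faces of the myelin membrane together, ranged over 1262 to 1573 CPM in sham-vehicle mice, 1215 to 1877 after LPS and 1361 to 1710.2 with CPD-4645. Cldn11 ranged over 481 to 655, 435 to 600.3 and 448 to 573 CPM. The log2 differences of these abundant genes were 0.07 ± 0.12 and -0.08 ± 0.11 after LPS and 0.08 ± 0.12 and -0.01 ± 0.11 with CPD-4645, small beside the drops of Pllp and Gjb1 in the same libraries. Mal, a proteolipid of myelin vesicles, had 338 ± 51.0, 267 ± 73.6 and 354 ± 25.9 CPM, with adjusted p = 0.054 in the second comparison. It passed there by limma-voom (adjusted p = 0.039), by DESeq2 (0.021), with DESeq2 size factors (0.046), with no count filter (0.027) and with the replicate block (0.037). It also passed there without LPS-vehicle mouse 4 (0.0073) or sham-vehicle mouse 2 or 4 (both 0.046). After LPS it passed without LPS-vehicle mouse 4 (adjusted p = 0.021).

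**Figure D3:**
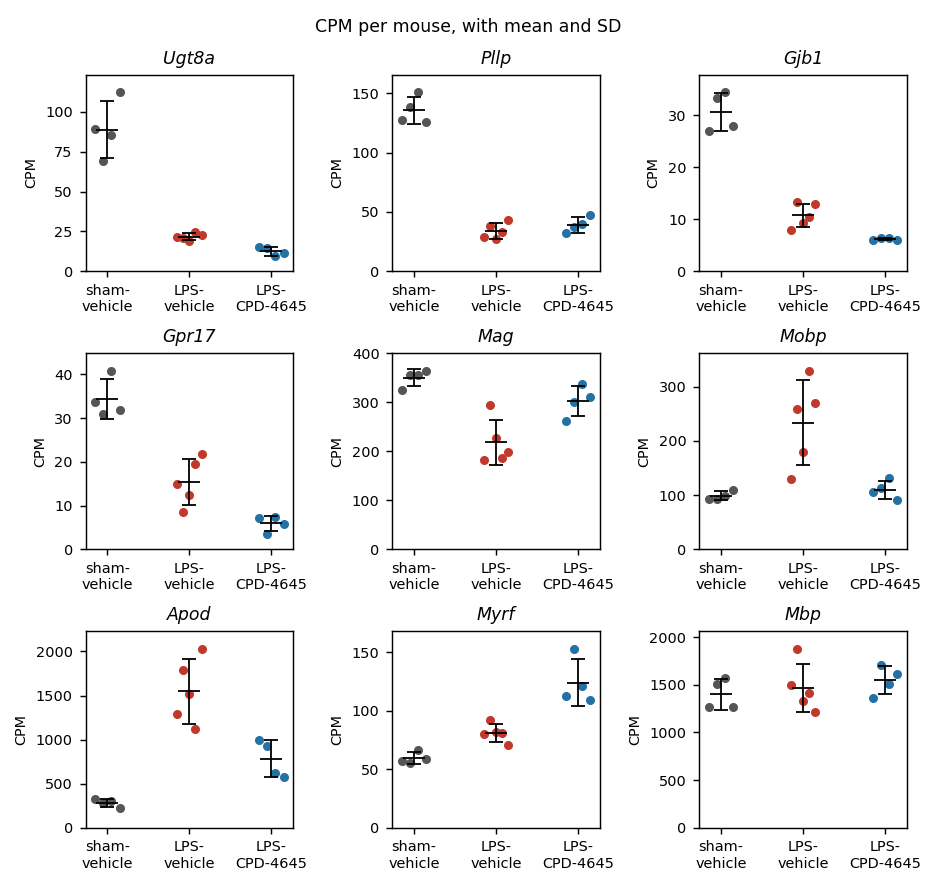
CPM of 9 of the genes in each mouse by group, with the group mean and SD. Ugt8a, Pllp, Gjb1 and Gpr17 were low in both LPS groups, Mobp and Apod were highest in the LPS-vehicle mice, Mag was lowest there, Myrf rose stepwise across the groups and Mbp overlapped between all 3.

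Because each preparation could keep a different amount of myelin, each gene was also expressed as counts per 100 Mbp counts in the same library. Of the 34 genes other than Mbp, 24 had LPS-vehicle mice entirely to one side of the sham-vehicle mice by CPM, and 20 of them by this ratio, where Mobp, Plekhh1, Fa2h and Nipal4 overlapped. With CPD-4645 against LPS alone, 10 were apart by CPM and 5 of them by the ratio, where Gpr17, Sox10, Olig1, Ugt8a and Gpr37 overlapped, while Mag and Mobp came apart. All 25 that were apart between LPS-CPD-4645 and sham-vehicle mice by CPM were also apart by the ratio, joined by Olig2 and Mag. Among all genes tested, 8.44% lay entirely lower and 9.68% entirely higher by CPM in the first of these comparisons. The shares were 12% and 11.1% in the second and 18.8% and 18.7% in the third. For the ratio to Mbp the share of all genes was not computed. Pllp then stood at 9.21 to 10.1 in sham-vehicle mice, 1.92 to 3.53 after LPS and 2.17 to 2.95 with CPD-4645, and Ugt8a at 4.58 to 8.88, 1.103 to 1.85 and 0.616 to 1.13. For both genes the LPS groups stayed clear of the sham range, and for Ugt8a, whose LPS groups did not overlap by CPM, the lowest LPS-vehicle ratio lay just inside the CPD-4645 range. Gjb1 gave 2.14 to 2.20, 0.531 to 1.06 and 0.372 to 0.436 counts per 100 Mbp counts. Mag gave 22.5 to 28.8, 12.1 to 17.1 and 17.6 to 22.3, now with no overlap between any 2 groups. Mobp gave 6.16 to 8.72, 8.68 to 23.3 and 5.64 to 8.66, with its lowest LPS-vehicle mouse just inside the sham range. Cldn11 overlapped in all groups, at 32.8 to 51.8, 30.2 to 41.3 and 29.7 to 38.0. How far the washes removed the mRNA of one gene more than that of another was not tested.

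**Figure D4:**
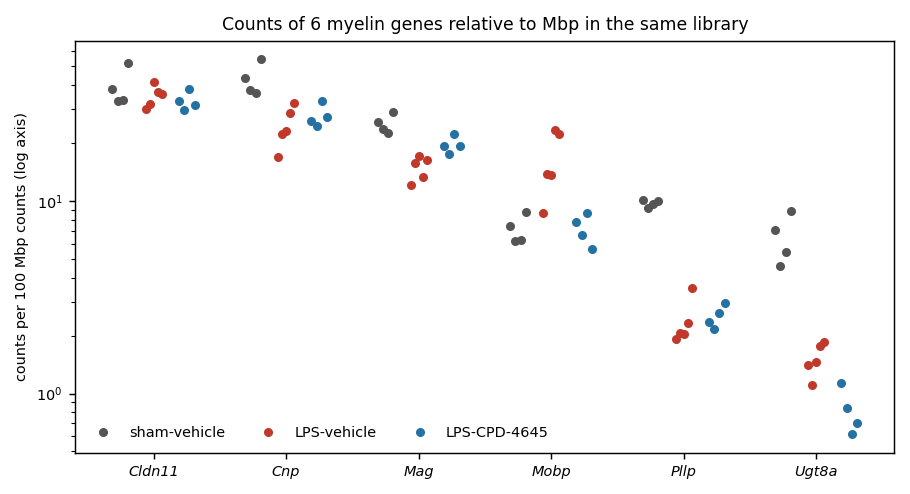
Counts of 6 sheath and lipid genes per 100 Mbp counts in the same library, by mouse and group on a log axis. Pllp and Ugt8a fell clear of the sham range in both LPS groups, Mag fell after LPS and lay between with CPD-4645, and Cldn11 overlapped throughout.

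All 5 enzymes fell after LPS, and all 5 were lower in LPS-CPD-4645 than in sham-vehicle mice. Ugt8a, the galactosyltransferase that makes the main glycolipid of myelin (chr3:125865271-125938619, minus strand), had 89.3, 69.0, 85.3 and 112 CPM in sham-vehicle mice, 21.2, 20.7, 19.3, 24.9 and 22.5 after LPS and 15.3, 14.4, 9.30 and 11.4 with CPD-4645. No groups overlapped. It fell 4.07-fold after LPS (log2 -2.03 ± 0.14, adjusted p = 2.3e-08), was 1.75-fold lower again with CPD-4645 (log2 -0.80 ± 0.15, adjusted p = 0.0007) and ended 7.11-fold below sham. Fa2h, which hydroxylates the fatty acids of the same lipids, had 77.7, 77.5, 85.6 and 87.3 CPM, then 51.6, 59.1, 73.6, 67.2 and 52.8 and 34.6, 44.5, 41.9 and 28.2. Its groups also did not overlap, with a log2 change of -0.44 ± 0.12 after LPS (adjusted p = 0.018) and -0.70 ± 0.13 with CPD-4645 (adjusted p = 0.00063). The LPS call of Fa2h rested on small margins: without sham-vehicle mouse 3 or 4, or without LPS-vehicle mouse 1, its adjusted p was 0.053 to 0.056.

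Aspa, which splits N-acetylaspartate into acetate for lipid synthesis, had 35.2, 34.1, 31.9 and 31.3 CPM in sham-vehicle mice, 17.5, 22.3, 15.2, 20.6 and 14.99 after LPS and 9.25, 7.52, 7.26 and 7.73 with CPD-4645. The 3 groups were apart, 1.81-fold lower after LPS (adjusted p = 8.3e-05) and 2.31-fold lower again with CPD-4645 (adjusted p = 1e-05). Car2, the carbonic anhydrase of oligodendrocytes and of choroid plexus, had 423, 418, 384 and 377 CPM, then 185, 108, 106, 92.6 and 97.7 and 110.1, 98.8, 81.9 and 80.8. Its LPS groups lay far below sham and overlapped each other. Car2 fell 3.40-fold after LPS (log2 -1.76 ± 0.16, adjusted p = 3.7e-07), and the inhibitor made no difference that passed the test (log2 -0.35 ± 0.16, adjusted p = 0.11). Choroid plexus markers, 10 genes, summed to 354 to 729 CPM in sham-vehicle, 180.1 to 387 in LPS-vehicle and 253 to 798 in LPS-CPD-4645 mice, with none of the 10 at 0 in all libraries, and their part in the level of Car2 was not tested. Qdpr, which recycles tetrahydrobiopterin, fell from 329.8 ± 24.7 to 171 ± 8.91 CPM (log2 -0.94 ± 0.08, adjusted p = 1.4e-07) and stood at 192 ± 17.2 with CPD-4645 (adjusted p = 0.12).

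Of the 8 receptors, transport and secreted proteins, 5 fell and 2 rose after LPS. Gpr37, a receptor that tunes the timing of oligodendrocyte maturation, had 137, 138, 141 and 149 CPM in sham-vehicle mice, 45.5, 60.5, 48.3, 58.7 and 56.0 after LPS and 71.5, 66.0, 71.5 and 77.7 with CPD-4645. The 3 groups were apart, with the CPD-4645 mice in the middle. It fell 2.61-fold after LPS (log2 -1.39 ± 0.09, adjusted p = 1.3e-08) and was 1.33-fold higher with CPD-4645 than with vehicle (log2 0.41 ± 0.09, adjusted p = 0.0021), still 1.97-fold below sham. Mag and Gpr37 were the only members that fell after LPS and were higher with CPD-4645. Ninj2, an adhesion molecule, fell from 3.96, 4.10, 3.07 and 2.77 CPM to 0.687, 0.717, 0.378, 0.164 and 0.238 (log2 -2.95 ± 0.49, adjusted p = 0.00028), the largest drop of the 35 but with few counts, and had 1.42, 0.175, 0.489 and 0.549 CPM with CPD-4645 (adjusted p = 0.57 against LPS-vehicle).

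Lpar1, a lysophosphatidic acid receptor, fell 2.05-fold (adjusted p = 0.00029) from 31.9 ± 2.90 to 15.4 ± 4.44 CPM. Nipal4, a putative magnesium transporter, fell 2.08-fold (adjusted p = 0.0093), and Evi2a, a membrane protein encoded inside an intron of Nf1, 1.81-fold (adjusted p = 7.8e-05). None of these 3 passed for the inhibitor. Evi2a, Lpar1, Trf and Pdgfra overlap another annotated gene on the same strand, 13 further members overlap one on the other strand only, and 18 overlap none, so reads of the 17 may in part belong to a neighbour.

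Apod, a secreted lipid-binding protein made by oligodendrocytes, astrocytes and fibroblasts (chr16:31296192-31314808, minus strand), had the largest rise of the 35. Its levels were 329, 277, 298 and 223 CPM in sham-vehicle mice, 1295, 1787, 1515, 1118 and 2030.0 after LPS and 999, 928, 625.1 and 579 with CPD-4645. No groups overlapped, and the CPD-4645 mice stood in the middle. Apod rose 5.50-fold (log2 2.46 ± 0.19, adjusted p = 6.7e-08) and was 1.98-fold lower with CPD-4645 (log2 -0.99 ± 0.18, adjusted p = 0.00066), still 2.78-fold above sham. Hapln2, a link protein of the matrix at nodes of Ranvier, ranged over 33.97 to 44.0 CPM in sham-vehicle mice, 52.5 to 93.4 after LPS and 42.3 to 61.8 with CPD-4645. It rose after LPS (log2 0.67 ± 0.15, adjusted p = 0.0042), and the inhibitor made no difference that passed (adjusted p = 0.18). Trf, the iron carrier transferrin that choroid plexus also makes, had 78.2 ± 11.0, 84.4 ± 43.4 and 57.6 ± 7.23 CPM, with LPS-vehicle mouse 3 the highest at 159 CPM, and passed in no comparison as fitted over all 13 mice. All LPS-CPD-4645 mice lay below the sham range, and that difference passed without LPS-vehicle mouse 3 (adjusted p = 0.020) and with only the groups compared (adjusted p = 0.0065). Against LPS-vehicle mice Trf was lower with an adjusted p of 0.037 to 0.046 in 4 of the alternative settings.

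Markers of other cells moved beside these genes. The 10 astrocyte markers had 6 higher and 0 lower after LPS and summed to 1719.8 to 2189 CPM in sham-vehicle, 2347 to 3066 in LPS-vehicle and 2209 to 2809.5 in LPS-CPD-4645 mice. Fibroblast markers, 10 genes, summed to 127 to 147, 143 to 165 and 127 to 177 CPM, with 2 higher and 3 lower after LPS. Both cell types can make Apod, and their part in its rise was not tested. The 12 neuron markers had 5 lower and 0 higher after LPS, none by 2-fold, with sums of 12428 to 14187, 10307 to 11458 and 10962 to 13804 CPM, and 8 neutrophil markers summed to 3.65 to 11.2, 71.7 to 288 and 7.94 to 28.3 CPM. The 10 endothelial markers had 5 higher and 1 lower after LPS and summed to 400.0 to 609, 525 to 981 and 585 to 749 CPM. After LPS, 5 of 10 microglia markers were lower and 0 higher, and 4 of 10 markers of pericytes and smooth muscle were lower and 1 higher. Among all genes, 8.86% were lower and 11.1% higher. With CPD-4645 against LPS-vehicle, 5 endothelial, 4 microglia, 8 neutrophil, 1 astrocyte, 1 fibroblast and 1 pericyte and smooth muscle marker were lower. In that comparison 1 microglia and 2 neuron markers were higher, beside 16.4% of all genes lower and 14.1% higher. In all these lists no gene was at 0 in every library, and the part of these shifts in the values of the 35 genes was not tested.

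Paired across the first and second comparisons, 12 members fell after LPS and had no call for CPD-4645 (Enpp6, Mog, Cnp, Pllp, Opalin, Plekhh1, Qdpr, Car2, Lpar1, Nipal4, Evi2a, Ninj2). Another 6 fell after LPS and were lower again with the inhibitor (Gpr17, Sox10, Gjb1, Ugt8a, Fa2h, Aspa). Nkx6-2, Mobp and Apod rose and were lower with it, Hapln2 rose with no call for it, and Myrf was higher in both. Because both comparisons use the LPS-vehicle mice, a high or low LPS-vehicle group moves them in opposite directions.

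Other genes of mature oligodendrocytes, 29 in a second list, had 16 lower and 3 higher after LPS, beside 8.86% and 11.1% of all genes. With CPD-4645 against LPS-vehicle they had 8 lower and 4 higher, beside 16.4% and 14.1% of all genes. Their median log2 differences were -0.53 and -0.18. Ppp1r14a, a phosphatase inhibitor, fell from 43.5 ± 1.95 to 19.0 ± 6.00 CPM after LPS (adjusted p = 4.5e-05) and was at 8.75 ± 0.55 with CPD-4645 (log2 -1.15 ± 0.18 against LPS-vehicle, adjusted p = 1.4e-04). Adamts4, a matrix protease, had 16.2 ± 2.79, 38.0 ± 16.8 and 13.03 ± 4.01 CPM in the 3 groups and, like Mobp, rose and was then lower (log2 1.24 ± 0.27 after LPS, adjusted p = 0.0028, and -1.56 ± 0.27 with CPD-4645, adjusted p = 4.4e-04). The study reported both changes of Adamts4 and cites its induction by cytokines in astrocytes and macrophages. Which cells its RNA came from was not tested.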

How the data were processed

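Poly(A) RNA of 13 mice was sequenced from stranded TruSeq libraries. Per the labels and the study's methods, the authors demultiplexed with bcl2fastq 2.15.0.4, aligned to mm10 with STAR 2.5.2a against GENCODE M9 and deposited raw gene counts, 1 column per mouse. Which strand setting the counts came from was not given in the sources used here, so reads of overlapping genes may be mixed. Identifiers were matched to GENCODE M21 (GRCm38), 47224 of 47643 in all and 35 of 35 of the genes described. Each mouse was 1 replicate of its labelled group.

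Counts were filtered with filterByExpr (minimum count 10, minimum total 15), scaled by TMM (factors 0.908 to 1.08) and tested in 1 fit of all 13 libraries with edgeR 4.0.16 (R 4.3.3, quasi-likelihood F-test), with Benjamini-Hochberg adjustment over 17285 genes. The threshold was an adjusted p of at most 0.05, with a 2-fold change where stated. Alternatives were limma-voom (limma 3.58.1), DESeq2 1.42.0, DESeq2 size factors in edgeR, other count filters, only the groups compared, the replicate number as a block, and leaving out single libraries or both shallowest ones. All 35 members were named, and of other lists the few with the largest changes past the 2-fold threshold, of which 1 is not reported here. The members and lists were chosen with earlier results of these data known, so no test was made over a list. CPM per kb used the exon length of each gene. Lengths of the exon union say nothing of which isoform was read.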

Additional observations from a re-analysis of the deposited data

Results flagged for a closer look

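In 3 of 105 groups of one gene and one treatment, a single mouse lay far from the others of its group by Dixon's ratio at the 95% level, fewer than the 5% of groups that chance alone would flag. Car2 stood at 184.5 CPM in LPS-vehicle mouse 1, while the other 4 mice of the group had 92.6 to 108 CPM. Lpar1 stood at 27.6 CPM in sham-vehicle mouse 2, against 33.2 to 33.5 CPM in the other 3. Hapln2 stood at 93.4 CPM in LPS-vehicle mouse 2, against 52.5 to 61.5 CPM in the other 4. All 3 genes kept their LPS call without the mouse in question.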

How the results depend on the processing

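Of the 64 values called for single genes over the 3 comparisons, 64 kept direction and call under limma-voom, DESeq2, DESeq2 size factors, no count filter, only the groups compared and the replicate block. With a mean count of at least 50, 62 could be tested and all 62 kept theirs. Leaving out libraries ended 16 calls in single settings, all of Nkx6-2 and Fa2h after LPS, Tspan2 with CPD-4645, and Cnp between LPS-CPD-4645 and sham-vehicle mice (adjusted p = 0.055 without sham-vehicle mouse 4 and 0.052 without LPS-CPD-4645 mouse 1). Without both shallowest libraries Nkx6-2 had a log2 change of 0.37 (adjusted p = 0.072). The number of genes at least 2-fold higher in LPS-CPD-4645 than in sham-vehicle mice was 2, and 1 to 2 with single mice left out. It was 1 without LPS-CPD-4645 mouse 2. Genes at least 2-fold lower after LPS numbered 11, and 9 to 12 with single mice left out. With CPD-4645 against LPS-vehicle they numbered 3, and 2 to 4.

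Same-numbered mice of different groups deviated with correlations of -0.035 to 0.11 over 12 pairs, so the numbers were not taken to pair the mice. With the replicate block, 21 genes fell and 5 rose after LPS, 13 were lower and 6 higher with CPD-4645, and 21 were lower and 4 higher in LPS-CPD-4645 than in sham-vehicle mice. At 2-fold the block gave 11 lower and 2 higher, 2 lower and 0 higher, and 13 lower and 2 higher.

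Signs changed only for values that passed in no setting compared, of which Ninj2 with CPD-4645 was the farthest from 0 as reported (0.43). The cause was not tested. Trf after LPS was -0.11 by limma-voom and -0.25 without both shallowest libraries (0.09 as reported). Cldn11 with CPD-4645 was 0.00052 by limma-voom, 0.0017 by DESeq2, 0.0018 with DESeq2 size factors, 0.0041 with only the groups compared and 0.076 without both shallowest libraries. Without these libraries Mog was 0.0030 and Ninj2 -0.18 with CPD-4645, and against sham Pdgfra was -0.030 (-0.0035 by limma-voom) and Olig2 0.013. With single mice left out, the log2 change after LPS ranged from -0.038 to 0.13 for Mbp, -0.14 to 0.030 for Cldn11 and -0.25 to 0.22 for Trf. With CPD-4645 against LPS-vehicle it ranged from -0.061 to 0.058 for Cldn11, -0.17 to 0.11 for Lpar1, -0.14 to 0.076 for Mog, -0.14 to 0.78 for Ninj2, -0.0017 to 0.20 for Olig2 and -0.19 to 0.025 for Plekhh1. Between LPS-CPD-4645 and sham-vehicle mice it ranged from -0.13 to 0.036 for Cldn11, -0.17 to 0.023 for Olig2 and -0.034 to 0.087 for Pdgfra. Values with no call passed the threshold in 37 single settings, those of Bcas1, Car2, Cnp, Mal, Pdgfra, Qdpr and Trf with CPD-4645 against LPS-vehicle, of Mal, Olig1 and Pdgfra after LPS, and of Hapln2 and Trf between LPS-CPD-4645 and sham-vehicle mice. The lowest count of any member in a library was 3, of Ninj2.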
